A study of Mus musculus with 4 samples.

Results

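The 30 genes described here drive or mark the duplication of DNA and the division of the cell, and were chosen by name from a list of S-phase and mitosis genes. All 30 were present among the 24453 gene symbols counted, and all 30 passed the low-count filter that left 14550 genes for testing. For the comparisons, 12 were counted as S-phase genes (Ccne1, Ccne2, Mcm2 to Mcm7, Pcna, Tyms, Rrm2 and Mybl2) and 18 as mitotic genes (Ccna2, Ccnb1, Ccnb2, Cdk1, Mki67, Top2a, Aurka, Aurkb, Plk1, Bub1, Bub1b, Birc5, Cdc20, Ube2c, Cenpf, Cenpe, Kif11 and Foxm1). The RNA came from back skin of mice at postnatal day 0. Cells were sorted by surface EpCAM and Sca1 and by a high level of α6-integrin, which enriches progenitors of the epidermis between hair follicles. There were 2 libraries labelled Control, whose alleles the labels do not give, and 2 libraries of the genotype Ring1a-/- Ring1b-/I53A. These mutants lack Ring1a, encoded by Ring1, and carry a null allele of Ring1b, encoded by Rnf2, over the I53A allele, whose product lacks the catalytic activity by which Polycomb repressive complex 1 ubiquitinates histone H2A. Both mutant libraries carry all of these alleles, whose parts cannot be told apart, and the labels name no driver of a conditional deletion and do not say whether a library came from 1 animal or from several.

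In a dividing cell, replication origins are licensed in G1 when the ring of MCM proteins is loaded onto DNA, and E2F factors switch on the genes of S phase, among them the MCM genes, the sliding clamp PCNA and the enzymes that make deoxynucleotides. Later, the MuvB complex with B-Myb and then FoxM1 switches on the genes of G2 and mitosis, which hold cyclin B, CDK1, the Aurora and Polo kinases and the kinetochore. In the epidermis, cells divide mainly in the basal layer, and both gene groups go down as cells move up and differentiate.

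Promoter sequences are shown because the S-phase and mitotic classes compared here are known to be driven by different factors, whose recognition letters can be looked for. The RefSeq promoter table (GRCm38.p6) held 25 of the 30 genes, 10 S-phase and 15 mitotic ones, and the 250 bases before each start site were searched on both strands. The E2F core was searched as TTNNCGC with C or G at both N, and its matches can overlap each other across strands. It was in 45.5% of the 11 S-phase promoters (Mcm7 has 2), in 20% of the 15 mitotic promoters and in 7.89% of all 32851 promoters of this length. TTTGAA, the core of the cell cycle homology region bound by MuvB, was in 46.7% of the mitotic promoters, in 9.09% of the S-phase promoters and in 16% of all promoters. CCAAT, the box bound by NF-Y, was in 93.3% of the mitotic, 72.7% of the S-phase and 33.8% of all promoters. A match is a description of the letters and not a site of binding. In the lines for Mcm6 and Mcm5, the helicase genes with the largest number of E2F matches, capitals mark the E2F core. In the lines for Mki67, Top2a and Cdk1 capitals mark TTTGAA on either strand, so that TTCAAA in Top2a is the same motif read on the other strand.
Mcm6 (chr1:128359706-128359835, minus strand): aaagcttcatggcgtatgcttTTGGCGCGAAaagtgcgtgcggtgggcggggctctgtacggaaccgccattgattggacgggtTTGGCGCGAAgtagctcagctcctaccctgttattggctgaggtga
Mcm5 (chr8:75109334-75109508, plus strand): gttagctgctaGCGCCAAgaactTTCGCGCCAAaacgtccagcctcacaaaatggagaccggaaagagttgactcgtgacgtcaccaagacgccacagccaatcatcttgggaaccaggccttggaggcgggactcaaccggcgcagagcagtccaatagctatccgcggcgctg
Mki67 (chr7:135716380-135716574, minus strand): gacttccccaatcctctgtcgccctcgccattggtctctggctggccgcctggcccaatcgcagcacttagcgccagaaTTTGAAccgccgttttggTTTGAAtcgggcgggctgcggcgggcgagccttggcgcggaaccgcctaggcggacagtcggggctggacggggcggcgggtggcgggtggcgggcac
Top2a (chr11:99024190-99024384, minus strand): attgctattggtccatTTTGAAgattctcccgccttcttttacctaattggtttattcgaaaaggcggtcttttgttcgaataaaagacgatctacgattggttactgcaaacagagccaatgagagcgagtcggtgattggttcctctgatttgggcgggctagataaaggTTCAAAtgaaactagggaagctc
Cdk1 (chr10:69352939-69353042, minus strand): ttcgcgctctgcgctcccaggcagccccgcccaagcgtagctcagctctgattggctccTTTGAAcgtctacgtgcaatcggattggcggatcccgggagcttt
Each stretch is written 5′ to 3′ on the strand of its gene and ends at the last base before the RefSeq start site, except that of Cdk1, which ends 27 bases before it to leave out an annotated exon. The part left out holds another TTTGAA of Cdk1, from 15 to 10 bases before the start site. The Mcm6 stretch holds 2 copies of the same capital run, in each of which a match on one strand overlaps a match on the other. Mcm2 held TTTGAA and no E2F core in its window, unlike Mcm5, Mcm6 and Mcm7, and Mcm3 held neither. The windows of Mki67 and Cdk1 also held E2F cores, which are not in capitals in their lines, and that of Top2a held none.

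Total counts ranged from 15505018 to 21543385 per library, and the 30 genes together took 0.497% to 0.576% of them. Levels are given as CPM, counts scaled to a common library size with TMM factors. For Ring1 the controls had 24.2 and 33.3 CPM and the mutants 2.54 and 2.91 CPM, with replicate 1 listed first here and throughout. Rnf2 lay between 45.8 and 59.1 CPM in every library, a level that shows neither the I53A substitution nor a loss from the null allele. The basal keratin genes Krt5 and Krt14 and the sort antigen genes Epcam, Ly6a and Itga6 were expressed in every library. Xist was at 11 CPM in mutant replicate 1 and between 5998 and 8390 CPM in the other libraries, and the Y-linked gene Ddx3y was at 119 CPM in mutant replicate 1 and at most 0.119 CPM in the others. Mutant replicate 1 thus had the read pattern of a male and the other 3 libraries that of females, which the labels do not give, and sex and library cannot be told apart. The mutant libraries, which differ in this pattern, therefore did not come from the same animal. For the controls nothing says whether they came from separate animals, so that their spread, on which the p-values also rest, may be technical. In bulk RNA, fewer cycling cells and less RNA per cycling cell cannot be told apart.

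The mutants had lower mean levels of most S-phase genes, including all 6 MCM genes, and mitotic genes lay on both sides of control, but no single gene passed the test. None of the 30 genes was called in either direction by edgeR's quasi-likelihood test at an adjusted p under 0.05 (Benjamini-Hochberg over all tested genes), where 6.71% of all tested genes were called, 5.68% higher and 1.04% lower. At an unadjusted p under 0.05 there were 2 genes, Mcm6 lower and Bub1 higher, against 18.7% of all tested genes. DESeq2 called 1 gene lower, Mcm6, against 1.59% of all tested genes, and limma-voom called 0. The log2 fold change was below 0 for 10 of 12 S-phase genes and above 0 for 14 of 18 mitotic genes, where 51.6% of all tested genes were below 0 and 48.4% above. The median log2 fold change was -0.31 over the S-phase genes, 0.10 over the mitotic genes and -0.01 over all tested genes. Both mutant libraries lay below both controls for 7 of the S-phase genes and for 0 of the mitotic genes, against 23.5% of all tested genes. They lay above both controls for 1 S-phase gene and 4 mitotic genes, against 24.5% of all tested genes.

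The test left room for moderate changes. For 26 of the 30 genes the 95% interval of the fold change lay within 2-fold in either direction, and this held for all 18 mitotic genes. The 4 others, Ccne1, Ccne2, Mcm2 and Mcm6, had intervals that reached past 2-fold on 1 side. These fold changes and intervals are drawn gene by gene.

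**Figure D1:**
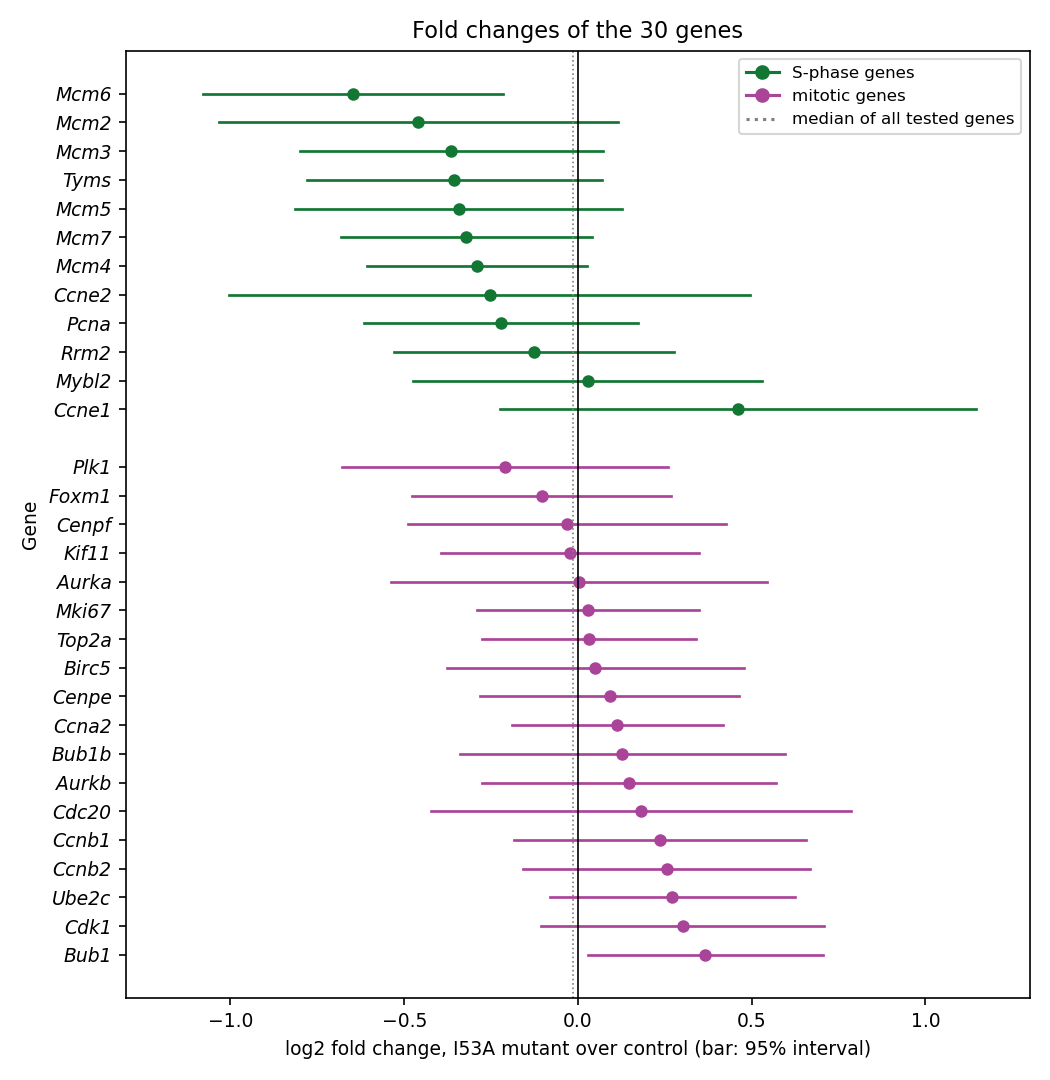
Log2 fold change of each gene, mutant over control (x axis), with its 95% interval from the edgeR fit as a bar, S-phase genes in green and mitotic genes in purple, and the median of all tested genes as a dotted line. The S-phase genes lie mostly left of 0, down to -0.65 for Mcm6, and the mitotic genes lie between -0.21 and 0.37.

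The 6 MCM genes encode the subunits of the ring-shaped helicase that is loaded at origins and unwinds DNA at the fork. Mcm6 was measured at 164 and 136 CPM in the controls and at 77.5 and 114 CPM in the mutants. Both mutant libraries were below both controls, and mutant replicate 1 was the lowest. The log2 fold change of Mcm6 was -0.65 ± 0.19 (SE, n = 2 libraries a group, adjusted p = 0.0837, edgeR quasi-likelihood test), or 63.8% of the control level with an interval from 0.473-fold to 0.861-fold. Mcm4, the most abundant of the 6, had 172 and 166 CPM in the controls and 128 and 148 CPM in the mutants. The groups did not overlap, and the log2 fold change of Mcm4 was -0.29 ± 0.14 (SE, adjusted p = 0.318). Mcm7 had 62.7 and 67.6 CPM in the controls and 48.2 and 55.8 CPM in the mutants, again without overlap (log2 fold change -0.32 ± 0.16, adjusted p = 0.337).

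Mcm2 showed the widest spread of the family. It had 96.2 and 126 CPM in the controls, and 56.1 and 105 CPM in the mutants. Mutant replicate 1 lay far below the controls and mutant replicate 2 lay between them, so that the groups overlapped (log2 fold change -0.46 ± 0.26, SE, adjusted p = 0.402). Mcm3 (67.7 and 73.2 CPM in controls, 44.1 and 64.8 CPM in mutants) and Mcm5 (58.5 and 55.9 CPM in controls, 35.1 and 54.6 CPM in mutants) did not overlap between groups, although Mcm5 in mutant replicate 2 was within 1.5 CPM of the nearer control. The 6 log2 fold changes ran from -0.65 to -0.29 with a median of -0.35. Summed over the family, the level was 621 and 625 CPM in the controls, and 389 and 541 CPM in the mutants. In this sum the controls lay close together and the mutants far apart, with means of 623 ± 2.82 CPM and 465 ± 108 CPM (SD, n = 2). Opposite shifts of single genes offset each other in the control sums. In control replicate 2, Mcm2 was at 1.31-fold and Mcm6 at 0.827-fold of control replicate 1. Per kilobase of transcript, the control level ranged from 16.9 CPM per kb for Mcm5 to 47.1 CPM per kb for Mcm4.

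How firmly the MCM genes stood below control depended on which mutant library was used. Without mutant replicate 2, Mcm2, Mcm3, Mcm5 and Mcm6 were called lower (adjusted p = 0.00163, 0.0206, 0.0217 and 0.000815, edgeR quasi-likelihood test), against 2.68% of all genes tested in that fit. The median log2 fold change of the 6 MCM genes was then -0.69. Without mutant replicate 1 no MCM gene was called and the median was -0.15. In both cases the remaining mutant library is assumed to vary like the controls.

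The clamp and nucleotide genes had log2 fold changes from -0.36 to -0.13. Pcna, the sliding clamp of DNA polymerases, had 38.8 and 44.3 CPM in the controls and 33.8 and 37.3 CPM in the mutants. Both mutant values were below both controls, by a small margin (log2 fold change -0.22 ± 0.18, SE, adjusted p = 0.596). Tyms, thymidylate synthase, had 52.4 and 65.9 CPM in the controls and 52.0 and 40.6 CPM in the mutants (log2 fold change -0.36 ± 0.19, adjusted p = 0.374), with mutant replicate 1 within 1 CPM of control replicate 1. Rrm2, the small subunit of ribonucleotide reductase, overlapped between groups with 66.8 and 84.7 CPM in the controls and 61.3 and 77.1 CPM in the mutants. Mybl2, which encodes B-Myb, was between 16 and 18.7 CPM in all 4 libraries.

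Cyclin E, the partner of CDK2 at the entry into S phase, was the least abundant part of the class. Ccne1 had 6.79 and 8.55 CPM in the controls and 8.84 and 11.9 CPM in the mutants, from 114 to 271 counts, and was the S-phase gene whose mutant values lay above both controls (log2 fold change 0.46 ± 0.31, SE, adjusted p = 0.50). Ccne2 had 7.74 and 12.4 CPM in the controls and 9.99 and 7.05 CPM in the mutants. Its groups overlapped, and its spread between libraries of 1 group exceeded the difference of the means (log2 fold change -0.25 ± 0.34, adjusted p = 0.777).

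**Figure D2:**
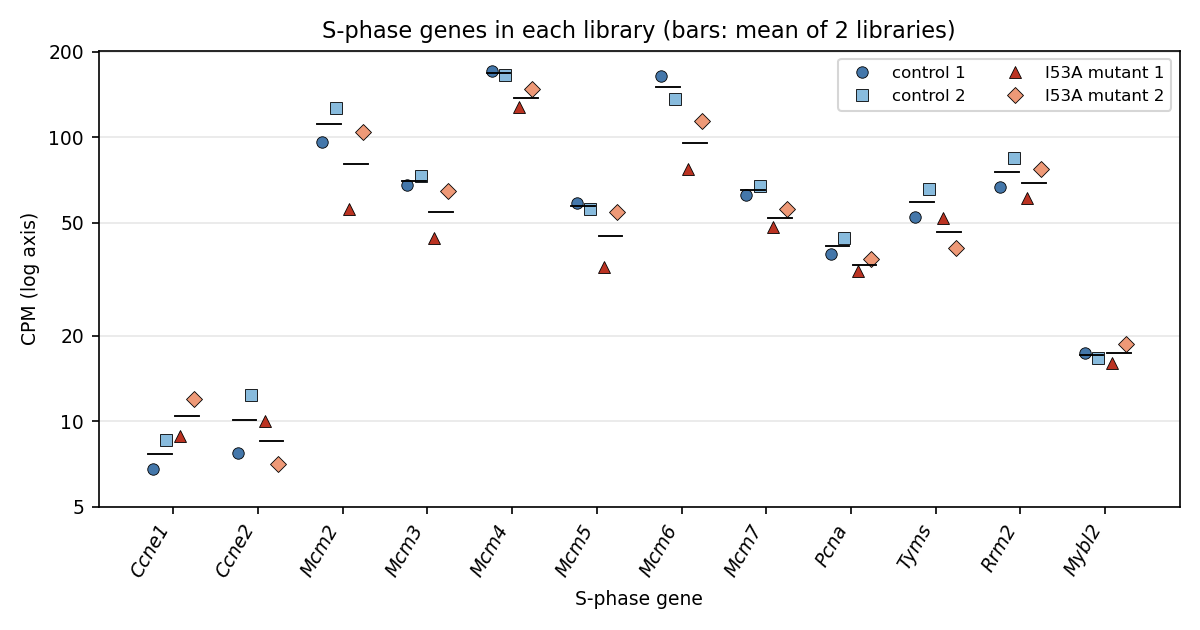
CPM of each S-phase gene in each library (y axis, log scale), with control libraries in blue, mutant libraries in red and orange, and a black bar at the mean of each group of 2. Mutant replicate 1 (red triangle) is the lowest of the 4 libraries for all 6 MCM genes, and Ccne1 is the gene with both mutants above both controls.

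Other genes of DNA replication, from lists of the pathway that hold none of the 30 genes, had no calls. Polymerase, fork and nucleotide genes were mostly below 0, while origin and licensing genes lay on both sides. Of 31 tested polymerase, fork and nucleotide genes, 0 were called. The log2 fold change was below 0 in 30, against 51.6% of all tested genes, with a median of -0.24. Both mutants were below both controls in 20, against 23.5% of all tested genes. Pola1, the catalytic subunit of DNA polymerase alpha, had the smallest p of this list and was chosen after its values were seen. It had 68.0 and 73.2 CPM in the controls and 49.1 and 47.9 CPM in the mutants (log2 fold change -0.54 ± 0.16, SE, adjusted p = 0.0703). Unlike the MCM genes, Pola1 differed little between the mutant libraries. Of 22 tested origin and licensing genes, 0 were called, 13 were below 0 and 9 above, with a median of -0.12. Both mutants were below both controls in 7 and above both in 5, against 23.5% and 24.5% of all tested genes. At an unadjusted p under 0.05, 4 genes of the first list and 3 of the second were lower and 0 were higher, where 5.69% of all tested genes were lower and 1893 of 14550 were higher.

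The 2 most abundant mitotic genes differed little between the groups. Mki67, the gene of the proliferation marker Ki-67, had 2007 and 1892 CPM in the controls and 2028 and 1948 CPM in the mutants. All 4 libraries lay close together, and the log2 fold change of Mki67 was 0.03 ± 0.14 (SE, n = 2 libraries a group, adjusted p = 0.953), with an interval from 0.817-fold to 1.27-fold. Top2a, topoisomerase II alpha, which untangles chromosomes, had 629 and 547 CPM in the controls and 596 and 606 CPM in the mutants. Both mutant values lay between the controls, and the log2 fold change of Top2a was 0.03 ± 0.14 (adjusted p = 0.944, interval 0.826-fold to 1.26-fold). Per kilobase of transcript these genes also led in the controls, with 194 CPM per kb for Mki67 and 113 CPM per kb for Top2a.

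The kinetochore and spindle genes Cenpf, Cenpe and Kif11 differed more between the controls than between the groups. Cenpf, a kinetochore protein, had 687 and 418 CPM in the controls and 542 and 539 CPM in the mutants, so that the mutant values fell between control values that were apart by a ratio of 0.608. Cenpe, a kinetochore motor, had 438 and 315 CPM in the controls and 406 and 397 CPM in the mutants. Kif11, the motor that separates the spindle poles, had 301 and 237 CPM in the controls and 294 and 235 CPM in the mutants. Birc5, survivin of the chromosomal passenger complex, was between 31.2 and 40.0 CPM. The log2 fold changes of these 4 genes were between -0.03 and 0.09.

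Among the mitotic kinases, Bub1 had the largest difference. Bub1, a kinase of the spindle checkpoint, had 63.6 and 57.9 CPM in the controls and 77.3 and 79.4 CPM in the mutants. Both mutant values lay above both controls, and the log2 fold change of Bub1 was 0.37 ± 0.15 (SE, adjusted p = 0.223, interval 1.02-fold to 1.63-fold). Bub1b, the checkpoint protein BubR1, had 102 and 65.8 CPM in the controls and 83.0 and 101 CPM in the mutants, with both mutants inside the range of the controls. Aurka and Aurkb, the Aurora kinases, and Plk1, the Polo-like kinase, overlapped between groups, with levels of 15.8 to 23.5, 72.9 to 105 and 23.9 to 33.5 CPM over the 4 libraries. Their log2 fold changes were 0.00, 0.15 and -0.21.

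The cyclins A and B and their kinase had 4 log2 fold changes above 0, from 0.11 to 0.30. Cdk1, the kinase that starts mitosis, had 41.1 and 33.4 CPM in the controls and 42.9 and 48.8 CPM in the mutants. The groups did not overlap, by a margin of under 2 CPM (log2 fold change 0.30 ± 0.18, SE, adjusted p = 0.445). Ccna2, cyclin A2, also did not overlap, with 135 and 129 CPM in the controls and 140 and 146 CPM in the mutants. Ccnb1 and Ccnb2, the B-type cyclins, overlapped, with 39.0 to 57.3 CPM and 35.6 to 51.4 CPM over the 4 libraries. Foxm1, the forkhead factor of mitotic genes, was between 143 and 195 CPM (log2 fold change -0.10 ± 0.17).

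Ube2c and Cdc20 are partners of the anaphase-promoting complex, which ends mitosis by marking cyclin B for destruction. Ube2c, its ubiquitin-conjugating enzyme, had 127 and 114 CPM in the controls and 162 and 129 CPM in the mutants (log2 fold change 0.27 ± 0.16, SE, adjusted p = 0.424). Both mutants were above both controls. Cdc20, its activator, had 39.8 and 33.3 CPM in the controls and 54.7 and 29.0 CPM in the mutants, which made mutant replicate 1 the highest and mutant replicate 2 the lowest of the 4 libraries. The log2 fold change of Cdc20 was 0.18 ± 0.27 (adjusted p = 0.807).

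**Figure D3:**
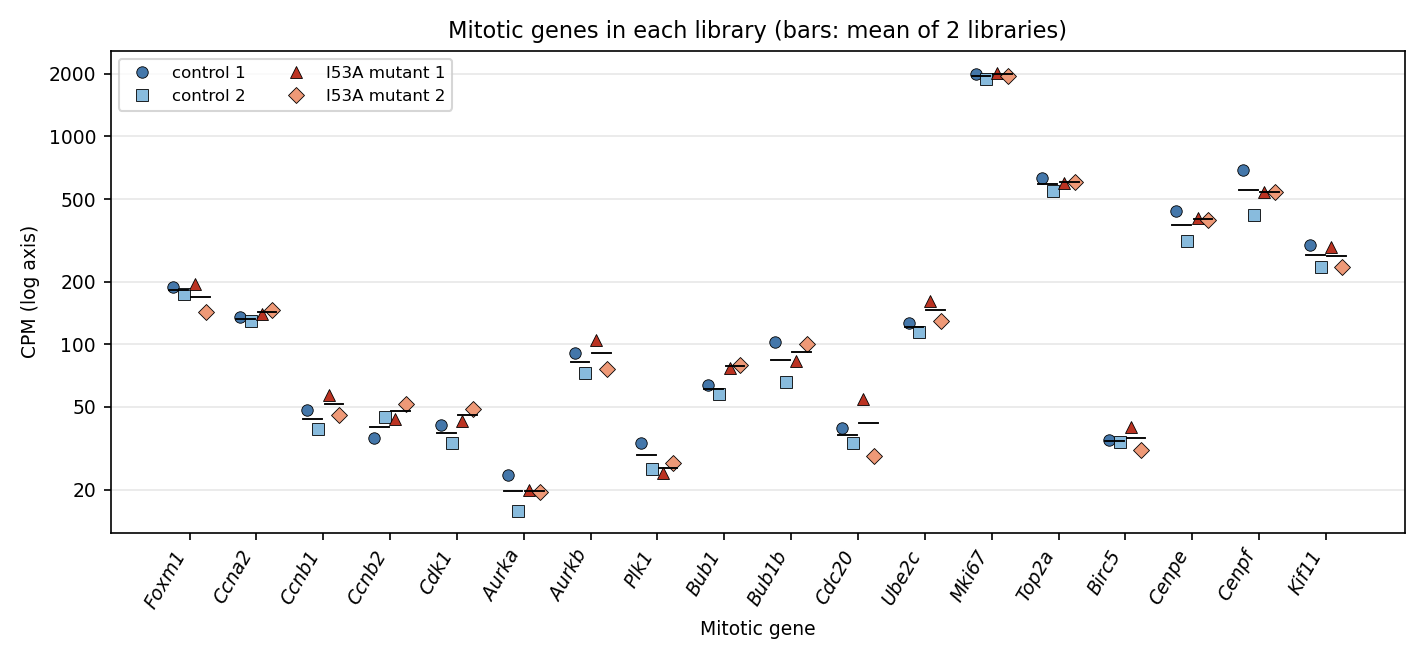
CPM of each mitotic gene in each library (y axis, log scale), with control libraries in blue, mutant libraries in red and orange, and a black bar at the mean of each group of 2. For Cenpf, Cenpe, Bub1b, Top2a and Aurka the mutants lie between the controls, and for Bub1, Cdk1, Ccna2 and Ube2c both lie above them.

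The wider lists of mitosis and control genes had no calls either. Of 41 tested kinetochore, spindle and cytokinesis genes 23 had a log2 fold change above 0 (median 0.08), of 17 cohesion and condensation genes 5 did (median -0.08), and of 37 cyclin, CDK and E2F control genes 15 did (median -0.05). Over the 5 lists of replication, mitosis and control, 0 of 148 tested genes were called by the edgeR quasi-likelihood test, and DESeq2 called 2 and limma-voom 0. At an unadjusted p under 0.05, 5 were higher and 9 lower, where 1893 of all 14550 tested genes were higher and 828 lower. Of 7 tested inhibitors of cyclin-dependent kinases, 2 were called higher and 0 lower, against 5.68% and 1.04% of all tested genes. The log2 fold change was above 0 for 3 of them and below 0 for 4. Cdkn1a, the most abundant, had 216 and 262 CPM in the controls and 174 and 178 CPM in the mutants, without overlap. Its log2 fold change was -0.44 ± 0.15 (SE, adjusted p = 0.118, edgeR quasi-likelihood test). Cdkn1c, which encodes p57, had 22.1 and 12 CPM in the controls and 74.2 and 98.3 CPM in the mutants (log2 fold change 2.33 ± 0.27, SE, adjusted p = 0.000697). Cdkn2b, which encodes p15, had 0.357 and 0.265 CPM in the controls and 2.67 and 2.16 CPM in the mutants (log2 fold change 2.90 ± 0.72, SE, adjusted p = 0.037), and its call was lost without control replicate 1 (adjusted p = 0.346), without control replicate 2 (adjusted p = 0.334) and with limma-voom (adjusted p = 0.0934).

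Within each library, the distance of the mitotic over the S-phase genes was larger on average in the mutants, but the controls themselves differed in this measure. The median log2 CPM of the 18 mitotic genes exceeded that of the 12 S-phase genes by 0.67 and 0.05 in control replicates 1 and 2, and by 1.02 and 0.69 in mutant replicates 1 and 2. The groups did not overlap, by a margin that was small beside the gap between the controls. The mean difference between groups was 0.50, and the pooled SD within groups was 0.35. In summed CPM, the ratio of mitotic to S-phase genes was 6.19 and 4.96 in the controls and 8.60 and 6.34 in the mutants. The S-phase medians alone were 5.92 and 6.06 log2 CPM in the controls and 5.53 and 5.79 log2 CPM in the mutants, without overlap. The mitotic medians were 6.59 and 6.12 log2 CPM in the controls and 6.55 and 6.48 log2 CPM in the mutants, inside the control range. With means over genes in place of medians, the distance was 1.35 and 0.92 in the controls and 1.70 and 1.29 in the mutants, and the groups overlapped. These values describe the chosen genes and were not tested. The distance between the classes in log2 fold change, mitotic minus S-phase, was 0.41, and it was 0.66 without control replicate 1, 0.21 without control replicate 2 and 0.16 without mutant replicate 1.

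**Figure D4:**
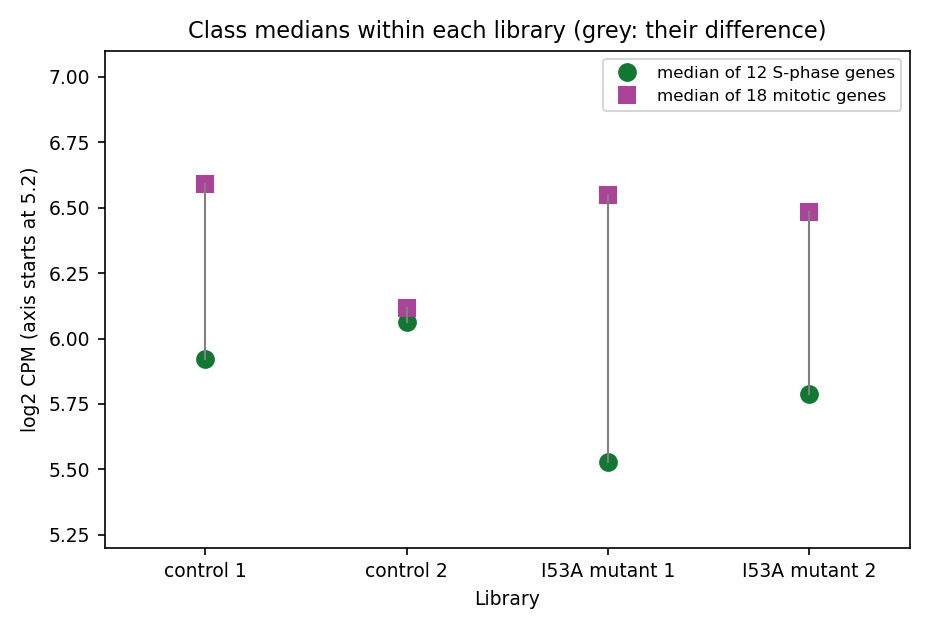
Median log2 CPM of the 12 S-phase genes (green circles) and the 18 mitotic genes (purple squares) in each library, with a grey line for the distance between them. The distance is 0.05 in control replicate 2 and 1.02 in mutant replicate 1, with 0.67 and 0.69 in the other libraries.

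The 2 mutant libraries differed from each other in the MCM genes. All 6 were higher in mutant replicate 2 than in mutant replicate 1, from 1.15-fold for Mcm4 to 1.87-fold for Mcm2, with a median log2 ratio of 0.55, while 50.8% of all tested genes were higher in mutant replicate 2. At least 1.5-fold higher were 2 of the 30 genes, Mcm2 and Mcm5 (1.56-fold), against 13.6% of all tested genes. Cdc20 was the gene at least 1.5-fold lower in mutant replicate 2, at 0.530 of mutant replicate 1, against 10.3% of all tested genes. Over the S-phase class 10 of 12 genes were higher in mutant replicate 2 (median log2 ratio 0.28), with Tyms and Ccne2 lower (0.782-fold and 0.706-fold). Over the mitotic class 7 of 18 were higher (median -0.03), with Bub1b the largest ratio at 1.21-fold. In the wider polymerase, fork and nucleotide list, 28 of 31 genes were higher in mutant replicate 2 (median log2 ratio 0.20). With 1 library on each side these ratios have no test.

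The control pair split along the classes as well. In control replicate 2, 17 of 18 mitotic genes were lower than in control replicate 1 (median log2 ratio -0.28), with Ccnb2 the exception at 1.25-fold, and 8 of 12 S-phase genes were higher (median 0.15), while 50.1% of all tested genes were higher. Cenpf and Bub1b were at least 1.5-fold lower (0.608-fold and 0.643-fold), against 9.73% of all tested genes, and Ccne2 was at least 1.5-fold higher (1.6-fold), against 10.2%. The MCM genes went both ways between the controls, with 3 of 6 higher in control replicate 2 and a median log2 ratio of 0.03. Their ratios ran from 0.827-fold for Mcm6 to 1.31-fold for Mcm2. In the wider kinetochore, spindle and cytokinesis list, 36 of 41 genes were lower in control replicate 2 (median log2 ratio -0.30).

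**Figure D5:**
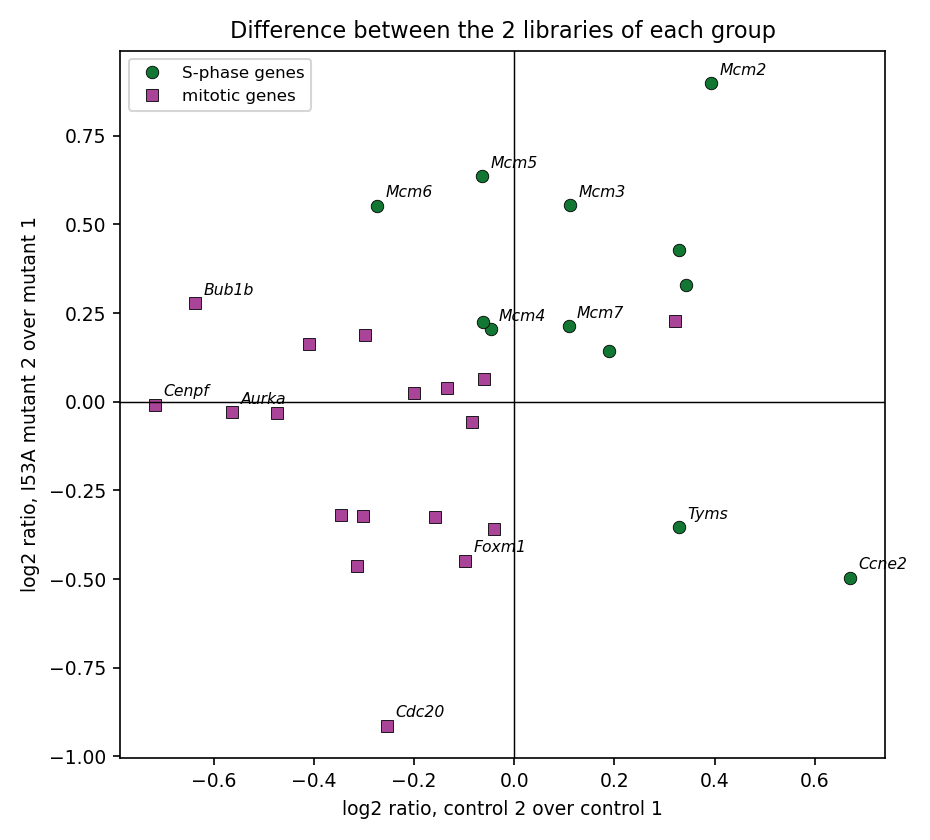
Log2 ratio of replicate 2 over replicate 1 in the controls (x axis) and in the mutants (y axis) for each gene, with S-phase genes as green circles and mitotic genes as purple squares. The 6 MCM genes lie above 0 on the y axis and close to 0 on the x axis except Mcm2 and Mcm6, and 17 of 18 mitotic genes lie left of 0.

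Markers of other cell types and layers also differed between the libraries. The summed level of the 10 basal epidermis markers was 31096 and 34604 CPM in the controls and 24546 and 21627 CPM in the mutants. The sum was lower in both mutants and lowest in mutant replicate 2, where the MCM genes were higher than in mutant replicate 1. In mutant replicate 2 every marker of this list was below both controls, some by a small margin. Lamb3, for instance, had 207 CPM there against 230 and 209 CPM in the controls. In mutant replicate 1 only Krt5, Krt14, Krt15 and Col17a1 were below both controls. The other basal markers thus overlapped between groups (median log2 fold change -0.13). Krt15 was the basal marker that was called lower, and Krt5 made up most of the sum. The 9 suprabasal markers found in the files, of 10 listed, summed to 3757 and 4399 CPM in the controls and 2647 and 4388 CPM in the mutants. The sum was lowest in mutant replicate 1, but Krt1 and Krt10 made up most of it and the list was split. In that library Krt1, Krt10, Dsg1a and Calm4 were below both controls, Krtdap, Sbsn, Dsc1 and Lor were above both, and Ivl lay between them. The 9 fibroblast markers summed to 1462 and 1534 CPM in the controls and 2283 and 2075 CPM in the mutants, with 3 called higher. The 9 hair follicle markers summed to 435 to 437 CPM in the controls and 699 to 738 CPM in the mutants (median log2 fold change 0.71). Lhx2, Sox9, Msx2, Krt17, Lgr5 and Wif1 were above both controls in both mutants, Krt71 was below both, and Krt25 and Shh overlapped. In this list 1 gene, Lhx2, was called higher and 1, Krt71, lower. Of all tested genes, 5.68% were called higher and 1.04% lower. The 7 immune markers in the files, of 8 listed, summed to 159 and 333 CPM in the controls and 153 and 351 CPM in the mutants, nearly all from Cd74 and H2-Aa, with Cd3g at 0 in every library, and were thus higher in replicate 2 of both groups. The melanocyte, endothelial, Merkel, skeletal muscle and erythroid lists summed to at most 30.3 CPM in any library, with Hba-a1 and Hbb-bs at 0 and 1 muscle gene called lower. The part of these markers in the values of the 30 genes was not tested.

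Reads of some genes could be shared with a neighbour, since some exons overlap and the counting is not stated to use strand. Exon bases of 8 of the 30 genes overlap those of another annotated gene, among them Mcm7 with Ap4m1, Ccne2 with Ints8, Ccna2 with Exosc9, Cdc20 with Elovl1 and Ube2c with Tnnc2 on the opposite strand. On the same strand, Foxm1 overlaps Tex52 and Gm44596, Top2a overlaps Gm23451, and Mcm7 also overlaps Mir25 and Mir93, which a strand setting would not separate. Mcm2, Mcm3, Mcm4, Mcm5, Mcm6, Mki67 and Bub1 have no overlap on either strand. In GENCODE M21 on GRCm38, the genes Mcm6 (chr1:128331590-128359664), Bub1 (chr2:127801122-127831865) and Mki67 (chr7:135689784-135716361) are all read from the minus strand.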

How the data were processed

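For each of the 4 libraries the authors deposited a table of unnormalized read counts by gene symbol. Per the labels' protocols, 10 ng of total RNA was amplified with the Ovation system and sequenced as single reads of 100 nucleotides. Per the submitters' processing notes, the tools were HTSeq 0.6.1, TopHat2 2.0.13, DESeq2 1.6.3 and Cufflinks 2.2.1, with the mm10 build. Their roles, the annotation and the strand setting were not given in the sources used here.

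Genes were filtered with filterByExpr (minimum count 10, minimum total 15), scaled with TMM and compared, mutant over control, by the quasi-likelihood test of edgeR 4.0.16 (R 4.3.3) without a block, two-sided, with Benjamini-Hochberg adjustment over all 14550 tested genes. SE and 95% intervals come from the coefficient and its F statistic. Log2 CPM used a prior count of 2. The ratio between 2 libraries used CPM, with 1.5-fold as the limit. Lengths are those of the longest protein-coding GENCODE M21 transcript, or of the longest transcript where a gene has no protein-coding one. The fit was checked on simulated data. Replicates differed by more than sampling noise (chi-square per degree of freedom 13.5 and 44.3).

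The 30 genes and all lists were chosen with earlier results of these data known. Full values were given for the 2 most abundant genes, the 3 of smallest p and both extremes of the mutant ratio in each class, and for other genes by role. Of the wider lists, called genes were named. Pola1 was chosen after its values were seen, and so was every other gene outside this rule. Alternatives were other scaling (upper-quartile, RLE), other tools (limma-voom from limma 3.58.1, DESeq2 1.42.0), other low-count filters, other classes, summaries and prior counts for the levels, the earlier and the robust fit, each library left out, the replicate number as a block, and loess offsets (span 0.5) for GC content and transcript length, which 98.5% of symbols had.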

Additional observations from a re-analysis of the deposited data

How the results depend on the processing

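With 2 libraries a group, calls depended on the library left out. A fit with 1 library left out has 1 library in that group, which is assumed to vary like the other group. DESeq2 and the fit with the replicate block each called 1 gene lower, Mcm6, and offsets for GC content and length together with the replicate block called 2 lower (Mcm2 and Mcm6) and 1 higher (Bub1). RLE and upper-quartile scaling, the other filters, the earlier and robust fits, limma-voom and the offsets alone called 0. Over the libraries left out, the lowest log2 fold changes of Mcm2, Mcm3, Mcm5 and Mcm6 were -0.99, -0.68, -0.71 and -0.96, and the highest were -0.08, -0.12, -0.07 and -0.40. The cause of these differences was not tested. Over all tested genes, same-numbered libraries did not deviate together (correlation 0.041 across genes), so the numbers are not taken to pair them. The class levels did shift alike, since from replicate 1 to 2 the S-phase median rose and the mitotic median fell in both groups. Whether same-numbered libraries share an effect on these genes was not tested.

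The median log2 fold change ranged over the libraries left out from -0.35 to -0.13 for the S-phase genes, from -0.01 to 0.31 for the mitotic genes, from -0.69 to -0.15 for the MCM genes and from -0.016 to 0.0087 for all tested genes, which gave 0.0090 without a low-count filter. Mitotic minus S-phase was above 0 in all 15 alternatives, from 0.16 to 0.66.

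Over all genes, 251 to 1198 were called higher and 38 to 404 lower without each library, against 826 and 151. DESeq2 gave 232 lower, the offsets 282 lower, and the offsets with replicate block 1280 higher and 566 lower. Of the 148 wider genes, 0 to 5 were higher and 0 to 6 lower without each library, 2 were higher with DESeq2, 1 higher with the replicate block, 2 lower with the offsets, and 5 higher and 4 lower with the offsets and replicate block. Of the inhibitors 1 to 2 were higher without each library, and 1 with limma-voom.

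Some log2 fold changes near 0 changed sign. Cenpf was 0.010 with limma-voom and 0.013 with the replicate block. With the offsets, alone and with the replicate block, Mybl2 was -0.11 and -0.11, Mki67 -0.14 and -0.13, and Kif11 0.039 and 0.044. Without each library in turn the ranges crossed 0 for Aurka (-0.25 to 0.31), Aurkb (-0.10 to 0.36), Birc5 (-0.13 to 0.22), Bub1b (-0.16 to 0.48), Ccne2 (-0.56 to 0.12), Cdc20 (-0.33 to 0.58), Cenpe (-0.13 to 0.34), Cenpf (-0.35 to 0.37), Foxm1 (-0.34 to 0.10), Kif11 (-0.19 to 0.16), Mki67 (-0.014 to 0.067), Mybl2 (-0.10 to 0.13), Plk1 (-0.40 to 0.0075), Rrm2 (-0.30 to 0.053) and Top2a (-0.066 to 0.13). For the 6 MCM genes, Pcna, Tyms, Bub1, Ccna2, Ccnb1, Ccnb2, Ccne1, Cdk1 and Ube2c no alternative changed the sign.

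The distance of mitotic over S-phase levels within a library was 0.28 in control replicate 1 with Ccna2, Mybl2 and Foxm1 left out. With means in place of medians it was 1.35 and 0.92 in the controls and 1.70 and 1.29 in the mutants, where the groups overlapped. They overlapped also with Ccna2 among the S-phase genes, at 0.53 and -0.04 in the controls and 0.78 and 0.51 in the mutants.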
